A study of Brassica rapa subsp. pekinensis with 6 samples.

Results

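*Bra003255* and *Bra020195* are 2 fatty acid reductase genes of Chinese cabbage that the study lists under the term pollen development. They are the whole of this group, out of 35616 genes with at least 1 read in the series. The study described *Bra003255* as FAR6 and *Bra020195* as FAR1, after their closest *Arabidopsis* proteins. Both were named by the study as differentially expressed between the same libraries that are described here, so their difference between the lines is given as values and without a test.

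Fatty acid reductases convert activated fatty acids into primary fatty alcohols. Plants place such alcohols, free or esterified, in the wax of the epidermis, in suberin, the lipid barrier of roots, seed coats and wounds, and in the outer wall of pollen. In *Arabidopsis*, the member known for the pollen wall is MS2, which acts in the tapetum of the anther, FAR1 is known for the fatty alcohols of suberin, and FAR6 is an enzyme of the plastid. Both names used here therefore come from similarity to *Arabidopsis* proteins other than MS2.

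RNA came from developing flower buds at full bloom, from the female-sterile mutant *fsm* (libraries M1, M2 and M3) and from its wild type ‘FT’ (libraries F1, F2 and F4). ‘FT’ is a doubled haploid line, and *fsm* was derived from it by treating isolated microspores with ethyl methanesulfonate, a chemical mutagen. The mutant is a single line whose causal gene was not identified, and other changes made by the mutagen cannot be told apart from it. Each replicate mixed the buds of 5 plants with 3 inflorescences per plant, so that all floral organs were sampled together. In such mixed tissue, fewer cells of a type and less RNA per cell cannot be told apart. The study found smaller floral organs in *fsm*, and small amounts of pollen that was viable and gave seeds on ‘FT’. The part of these traits in the values below was not tested.

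The deposited counts summed to between 28118248 and 29366538 reads in *fsm* libraries and between 24990396 and 25402146 reads in ‘FT’ libraries. At these depths, 3 reads, taken as the lowest amount that can be told from none, correspond to between 0.102 and 0.107 CPM (counts scaled to library size) in *fsm* and between 0.118 and 0.120 in ‘FT’. Intervals and floors given here cover counting error only. No sequencing or library batch is named in the labels, and an effect of batch cannot be told apart from one of line. Of 10 genes that the study names as VGD1, polygalacturonase, arabinogalactan protein or pollen tube growth genes, each had at least 1 read in each of the 6 libraries. The summed RPKM (reads scaled to gene length in kilobases and to library size) of these 10 genes was between 158 and 185 in *fsm* libraries and between 3339 and 3372 in ‘FT’ libraries, a contrast fixed by their choice, since the study named them for a change of at least 16-fold in these libraries. The 3 pectinesterase genes named in the same passage are not among the 10 and went both ways, with a log2 fold change of -4.21 for *Bra009264*, 4.68 for *Bra009921* and 4.02 for *Bra034960*. The part of the 10 genes in the values below was not tested.

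*Bra020195*, the FAR1-like gene, was the more abundant of the pair. It had 431, 436 and 416 reads in M1, M2 and M3, against 20, 12 and 24 reads in F1, F2 and F4. Every *fsm* library was above every ‘FT’ library, as the choice of this gene for its change in these libraries favours. Counting intervals (95%, exact Poisson) reached down to 377 reads in the lowest *fsm* library, M3, and up to 35.7 reads in the highest ‘FT’ library, F4.

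Per length, *Bra020195* had an RPKM of 10.1 ± 0.223 in *fsm* and 0.502 ± 0.165 in ‘FT’ (SD, n = 3 each). The 3 *fsm* libraries were close together, at 9.92, 10.3 and 10.003 in M1, M2 and M3. The ‘FT’ libraries had an RPKM of 0.532, 0.324 and 0.649 in F1, F2 and F4, with F2 the lowest. The coefficient of variation of the RPKM was 2.21% in *fsm*, where counting alone would give 4.84%, and 32.9% in ‘FT’, where counting alone would give 23.1%.

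The log2 fold change of *Bra020195* in *fsm* over ‘FT’ was 4.39 (standard error 0.17, edgeR), a 21.0-fold difference. Even the lowest *fsm* library had 15.3 times the RPKM of the highest ‘FT’ library. Ranked by mean RPKM among the genes with reads in a line, this gene stood at the 55.6th percentile of 34211 genes in *fsm* and at the 17.3rd percentile of 34374 genes in ‘FT’. It was thus near the middle of the bud transcriptome in *fsm* and among the weakly expressed genes in ‘FT’.

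*Bra003255*, the FAR6-like gene, was low in both lines. It had 56, 79 and 69 reads in M1, M2 and M3, against 0, 5 and 0 reads in F1, F2 and F4. F2 was the single ‘FT’ library with any read, and its count still lay below that of each *fsm* library. The counting interval (95%, exact Poisson) was 42.3 to 72.7 reads for M1, the lowest *fsm* library, and 1.62 to 11.7 reads for F2.

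The RPKM of *Bra003255* was 1.44 ± 0.265 in *fsm* (SD, n = 3), with 1.15, 1.68 and 1.48 in M1, M2 and M3. In ‘FT’ it was 0.121 in F2 and 0 in F1 and F4, where 3 reads would correspond to an RPKM of 0.0714 and 0.0726. Expression in F1 and F4 was therefore not detectable at this depth. The coefficient of variation in *fsm* was 18.4%, where counting alone would give 12.1%. This gene stood at the 27.7th percentile of mean RPKM in *fsm* and at the 3.44th in ‘FT’.

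**Figure D1:**
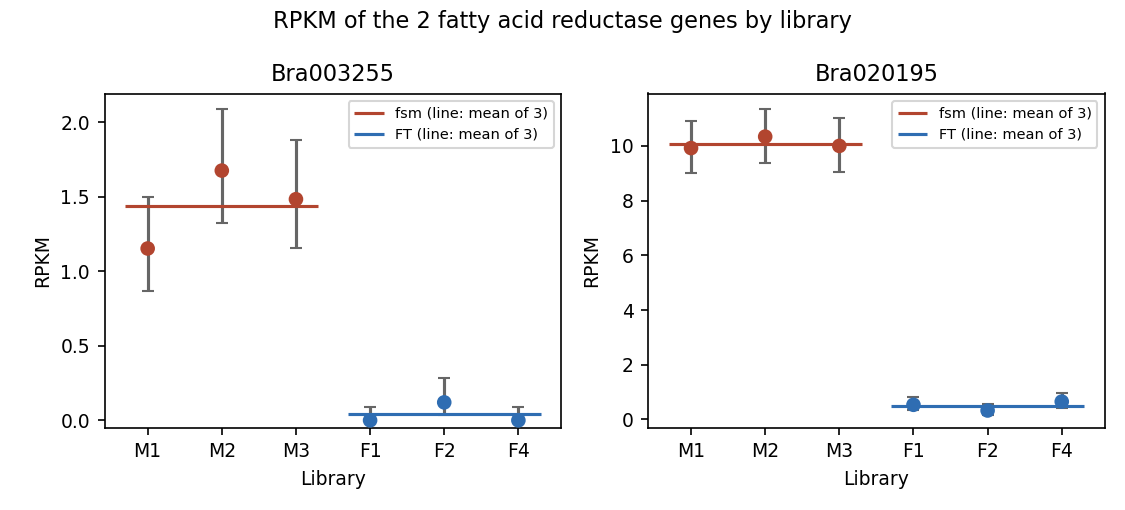
RPKM of *Bra003255* (left) and *Bra020195* (right) in each library, with M1 to M3 from *fsm* in red and F1, F2 and F4 from ‘FT’ in blue; points are libraries, bars are 95% Poisson intervals for counting error, and horizontal lines are the means of 3 libraries. The *fsm* means are 1.44 and 10.1, the ‘FT’ means 0.0402 and 0.502, and the 2 panels have different scales.

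The log2 fold change of *Bra003255* was 5.14 (standard error 0.49, edgeR), and its size rested on the 5 reads of F2. Without F2, the mean RPKM in *fsm* was at least 39.9-fold higher than in the other 2 ‘FT’ libraries, which had no read, with 3 reads over both as the floor, and the fitted value became 9.05. With a prior count of 2 in place of edgeR's default, it was 4.17. The direction was the same with each library left out in turn.

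F2 was not the highest ‘FT’ library over the genes that were far higher in *fsm*. Of the 1038 genes at least 16-fold higher in *fsm* by the thresholds of the study, F2 had the highest normalized value of the ‘FT’ libraries in 283, against 431 for F1 and 324 for F4. Their summed normalized level was 1864 CPM in F2, 1894 in F1 and 1938 in F4. Genes with at least 5 reads in F2 and none in the other ‘FT’ libraries numbered 16, against 19 for F1 and 16 for F4. Of these, 5 genes for F2, 2 for F1 and 1 for F4 also had at least 50 reads in each *fsm* library, and *Bra003255* was one of the 5.

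Both genes passed the thresholds that the study used to name them, adjusted p-values up to 0.001 with a log2 fold change of 4 or more in size, equal to a 16-fold difference. In the edgeR fit over all genes, 5.26% of 35616 genes passed them, 2.91% with higher and 2.34% with lower counts in *fsm*. Since this comparison chose the 2 genes, nothing is read from that count. The log2 fold change of 4.39 placed *Bra020195* closer to the threshold than *Bra003255* with 5.14. Tested by limma on log2(RPKM + 1), the log2 fold changes were 2.89 for *Bra020195* and 1.23 for *Bra003255*, and on log2(RPKM + 0.1) they were 4.12 and 3.55. An added constant shrinks the change of genes with a low RPKM, and the share of this in the difference from edgeR was not tested.

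**Figure D2:**
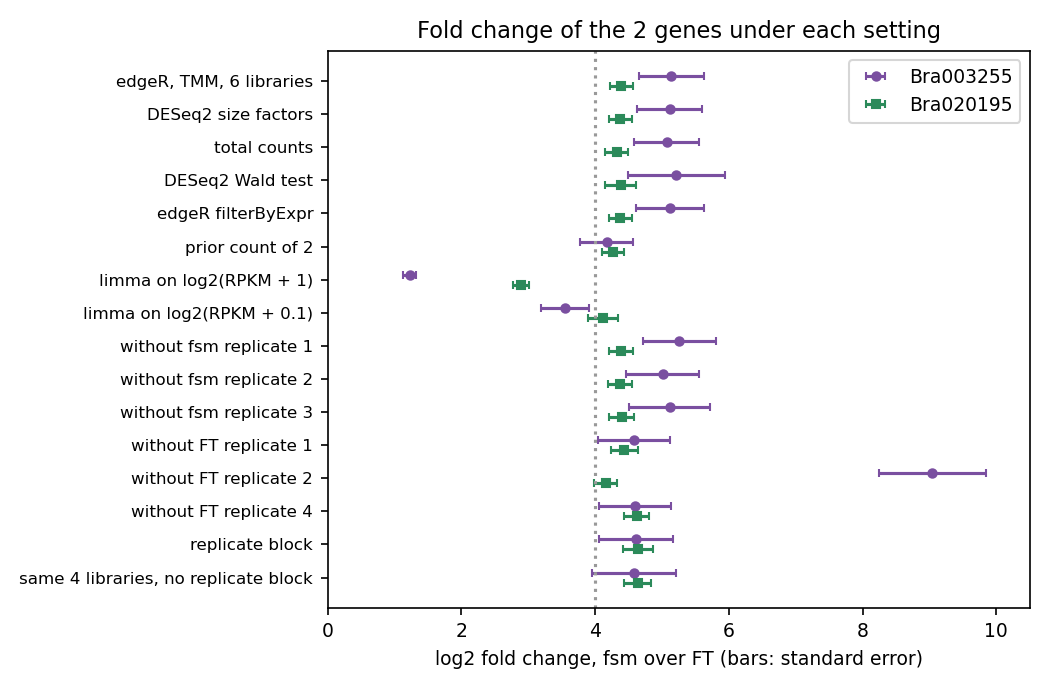
Log2 fold change in *fsm* over ‘FT’ of *Bra003255* (circles) and *Bra020195* (squares) under each processing setting, with bars of 1 standard error and a dotted line at 4. *Bra020195* stays between 4.16 and 4.64 in the fits to counts, while *Bra003255* lies at 9.05 without F2, which is ‘FT’ replicate 2, and at 4.17 with a prior count of 2.

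The deposited coverage, the share of a gene's length with reads on it, describes how far the reads overlapped. *Bra020195*, with a length of 1479 bases, was covered over 98.4%, 99.3% and 99.4% in M1, M2 and M3, against 57.9%, 46.0% and 63.4% in F1, F2 and F4. In genes with 1 read, that read covered a median of 125 bases, so the 12 reads of F2 spanned 681 bases at 56.7 bases per read. The ‘FT’ reads were thus not all stacked on one another, while their positions along the gene are not given by the coverage.

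*Bra003255*, with a length of 1653 bases, was covered over 94.7%, 95.3% and 95.0% in M1, M2 and M3, against 30.6% in F2. The coverage hardly differed between the *fsm* libraries although their counts ran between 56 and 79 reads. In F2, the 5 reads covered 506 bases, or 101 bases per read, so they overlapped little. Counts and coverage come from the same reads, and coverage is no separate evidence for the difference between the lines.

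**Figure D3:**
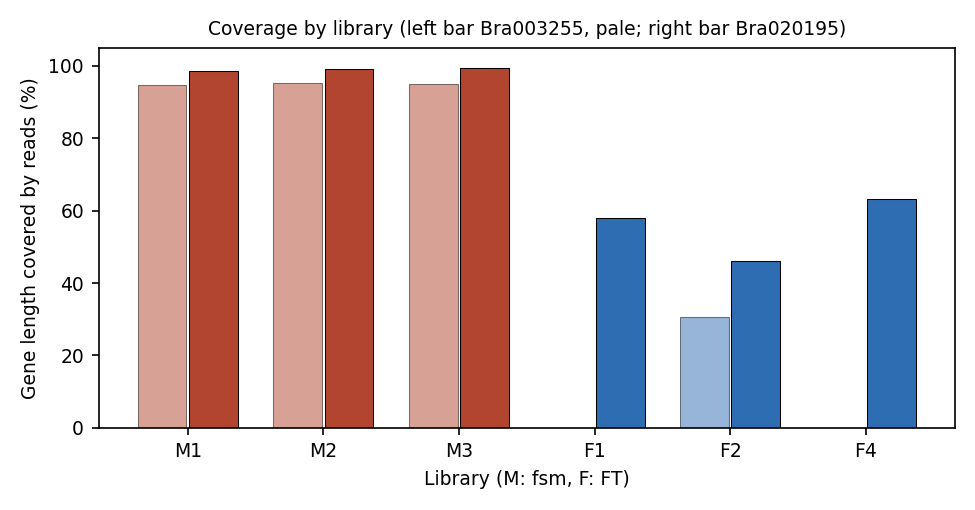
Percentage of the gene length covered by reads in each library for *Bra003255* (pale bars) and *Bra020195* (dark bars), with *fsm* libraries in red and ‘FT’ libraries in blue. Both genes are covered over more than 94% in each *fsm* library, and *Bra003255* has no bar in F1 and F4, where it had 0 reads.

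Within *fsm*, *Bra020195* was the higher of the 2 genes per length in every library. Its RPKM was 8.60, 6.17 and 6.74 times that of *Bra003255* in M1, M2 and M3, a mean of 7.17 ± 1.27 (SD, n = 3). The difference in RPKM had the same sign in 3 of 3 libraries (p = 0.25, two-sided exact permutation test by sign flips, where 3 libraries allow no smaller p). M1 gave the largest ratio, with the lowest RPKM of *Bra003255* and an RPKM of *Bra020195* close to that of the other libraries. In F2, the single ‘FT’ library with reads of both, the ratio was 2.68, from 12 and 5 reads. Whether the 2 genes differ in their change between the lines was not tested, since the change itself chose them.

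The 2 reductases were far apart in level. Likeness was measured as the Euclidean distance of log2(RPKM + 0.1) over the 6 libraries, which takes both the level and the difference between lines into account. By this measure *Bra020195* was only the 5676th nearest of 35615 genes to *Bra003255*, at a distance of 6.25. Conversely, *Bra003255* was the 7299th nearest to *Bra020195*. On this log2 scale *Bra020195* lay above *Bra003255* by 2.999, 2.56 and 2.67 in M1, M2 and M3, against 2.66, 0.94 and 2.91 in F1, F2 and F4, where 0 reads in F1 and F4 leave the value to the added constant. *Bra020195* thus lay above *Bra003255* in each library, while the size of the offset in F1 and F4 was not measured. Among the libraries with reads of both genes, the offset was smallest in F2.

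The genes nearest to *Bra020195* were *Bra021393*, described as the transcription factor WRKY23, *Bra038567*, an S-locus lectin protein kinase, *Bra019123*, a WRKY DNA-binding protein, and the undescribed *Bra009071* and *Bra037996*. The nearest, *Bra021393*, lay at a distance of 0.35, with an RPKM of 11.3 ± 0.526 in *fsm* and 0.545 ± 0.207 in ‘FT’ (SD, n = 3 each). Like *Bra020195*, it had its lowest ‘FT’ count in F2, with 8 reads against 14 in F1 and 18 in F4, which its choice by likeness favours. In all, 84 genes lay within 1 log2 unit of *Bra020195* in each of the 6 libraries.

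Nearest to *Bra003255* were *Bra004484*, described as P-glycoprotein 4, *Bra000282*, *Bra013448* and *Bra028477*, which have no informative description, and *Bra011544*, described as COW1, a phosphatidylinositol transfer protein known from *Arabidopsis* root hairs. *Bra004484* lay at a distance of 0.52 and had 160, 159 and 158 reads in M1, M2 and M3, against 2, 10 and 2 reads in F1, F2 and F4. In each of these 5 genes, F2 held the most ‘FT’ reads, as the likeness to *Bra003255* requires. The list was not firm, since with log2(RPKM + 1) only 2 of the 5 were among the nearest, against 4 of 5 for *Bra020195*. Within 1 log2 unit in each library lay 55 genes.

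The other genes of acyl lipid and pollen wall metabolism were taken from the annotation of the study. Those with a gene ontology term for pollen development, pollen wall assembly or pollen exine formation could be read for the genes with the most reads in F1, which favours genes high in ‘FT’. Of these 26 genes, 22 fell in *fsm*, 0 rose and 4 did not pass, where passing required a Benjamini-Hochberg adjusted p-value up to 0.001 in edgeR and a log2 fold change of 1 or more in size. Among all 35616 genes, 18% fell and 18.7% rose by this rule, together 36.7%. The median log2 fold change of the 26 was -2.14, beside -0.02 over all genes.

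Because these genes entered the list through their reads in an ‘FT’ library, no direction of pollen wall genes in general is read from that count. *Bra036646*, a fatty acid ligase with the exine term, had 2103, 1916 and 1765 reads in M1, M2 and M3, against 14424, 15437 and 13715 reads in the ‘FT’ libraries. The *fsm* libraries were all far lower, by a log2 fold change of -3.03 ± 0.07 (SE, edgeR). No test is given, since the gene entered the list through its reads in an ‘FT’ library. Its annotation also holds a term for actin nucleation, and which of these functions its reads stand for was not tested. Fatty acid ligases activate fatty acids by joining them to coenzyme A, the form that fatty acid reductases use. *Bra033272*, a monooxygenase with the terms exine formation and fatty acid biosynthesis, had 1056, 803 and 853 reads in M1, M2 and M3, against 4443, 4522 and 4290 reads in the ‘FT’ libraries. It too was lower in each *fsm* library, with a log2 fold change of -2.41 ± 0.07 (SE, edgeR), also given without a test.

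The largest fall in the list was that of *Bra037213*, a glucan synthase by its terms, which the study names for pollen development beside the reductases. It fell by 4.26 ± 0.09 on the log2 scale (SE, edgeR). The log2 fold changes of the 2 reductases under the same term were 5.14 and 4.39. The study named these genes as differentially expressed between these libraries, so their values are given without a test. Among the genes so named, the shared term held both directions.

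The highest value in the list belonged to *Bra011470*. The study annotates it with oxidoreductase activity on aldehyde or oxo groups, fatty acid biosynthesis and pollen development, and also with transcription factor activity. These terms do not settle whether it is itself a fatty acid reductase. It had 8697, 8386 and 7627 reads in M1, M2 and M3, against 4447, 4557 and 4479 reads in the ‘FT’ libraries. Its RPKM of 198 ± 9.54 in *fsm* and 123 ± 2.31 in ‘FT’ (SD, n = 3 each) was far above that of *Bra003255* and *Bra020195* in either line. Its log2 fold change of 0.76 ± 0.06 (SE, edgeR) stayed under 1, the fold limit of the rule. This value is also given without a test, since the gene was picked as the highest of its list.

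Genes with the term fatty acid biosynthesis were also read for the genes with the most reads in F1. Of 18 genes, 3 rose, 4 fell and 11 did not pass, with a median log2 fold change of -0.36. The share that passed was 38.9%, near the 36.7% of all genes, and is no result about the list. The highest value was 1.31, that of *Bra003526*, and the lowest was that of *Bra033272*. Their summed RPKM was between 3004 and 3131 in *fsm* libraries and between 3467 and 3548 in ‘FT’ libraries, a sum in which genes of both directions offset each other.

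Among the genes that the study called by its strict threshold, 22 were grouped here under acyl lipids by their described family, and 10 of them rose and 12 fell. The study made no such group, and the descriptions of the 3 cytochrome P450 genes in it name no lipid. The genes of this list were called by the study for their change in these libraries, so the list is not independent evidence of a direction. Over all 35616 genes, 2.91% were higher and 2.34% lower in *fsm* by the strict thresholds in edgeR. Genes of the same descriptions that the study did not call were not counted, so the following holds within this list only. In it, the 4 glycerol-3-phosphate acyltransferases and 5 of 6 lipid transfer proteins rose. The 7 oleosins, the wax synthase-related *Bra037879* and the acyl-ACP thioesterase *Bra038893* fell. Of 3 cytochrome P450 genes of the CYP77 and CYP94 families, 1 rose and 2 fell. No test of these divisions was made.

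Glycerol-3-phosphate acyltransferases attach fatty acids to glycerol, and in *Arabidopsis* GPAT5 is known for the suberin of roots and seed coats, the polymer for which FAR1 is also known. *Bra034843*, described as GPAT5, had 153, 210 and 139 reads in M1, M2 and M3 and 0 reads in each ‘FT’ library, at least 147-fold higher with 3 reads over the 3 ‘FT’ libraries as the floor. The other gene of the list described as GPAT5, *Bra002041*, had 15, 12 and 8 reads in M1, M2 and M3 and none in ‘FT’, at least 10.2-fold higher. Both of these called genes were thus detected in *fsm* libraries and in no ‘FT’ library.

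Of the genes described as GPAT3, *Bra000903* had 1122, 1040 and 944 reads in M1, M2 and M3, against 6, 6 and 16 reads in F1, F2 and F4. *Bra036303* had 57, 102 and 68 reads in M1, M2 and M3, against 2, 3 and 2 reads in the ‘FT’ libraries, a difference of 4.83 ± 0.42 on the log2 scale (SE, edgeR). *Bra036303* and *Bra034843* had their highest count in M2, as both reductases did, while *Bra000903* and *Bra002041* had theirs in M1. For both reductases, the 95% counting intervals of the *fsm* libraries overlapped, so nothing is read from this order. The median log2 fold change of the 4 was 6.58 as fitted and 5.75 with the 2 genes described as GPAT5 at their bounds.

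Lipid transfer proteins carry lipids between membranes and to the cell surface. *Bra020322* had an RPKM of 1195 ± 121 in *fsm* and 28.0 ± 3.23 in ‘FT’ (SD, n = 3 each), the highest RPKM of the 22 genes in *fsm*. The member that fell, *Bra037871*, had no read in *fsm* and 12, 6 and 14 reads in the ‘FT’ libraries F1, F2 and F4. The median log2 fold change of the 6 was 4.89 as fitted and 4.10 with the 3 genes that had no read in 1 of the lines at their bounds.

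Oleosins are proteins that coat oil bodies, and one class of them is found in the coat of *Brassica* pollen. *Bra028695*, described as a pollen coat oleosin, had 1, 0 and 0 reads in M1, M2 and M3, against 62, 55 and 32 reads in F1, F2 and F4. The summed RPKM of the 7 oleosins was between 1.28 and 1.83 in *fsm* libraries and between 48.1 and 54.8 in ‘FT’ libraries. All 7 were chosen for their change in these libraries, and the other 6 have no pollen coat description.

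**Figure D4:**
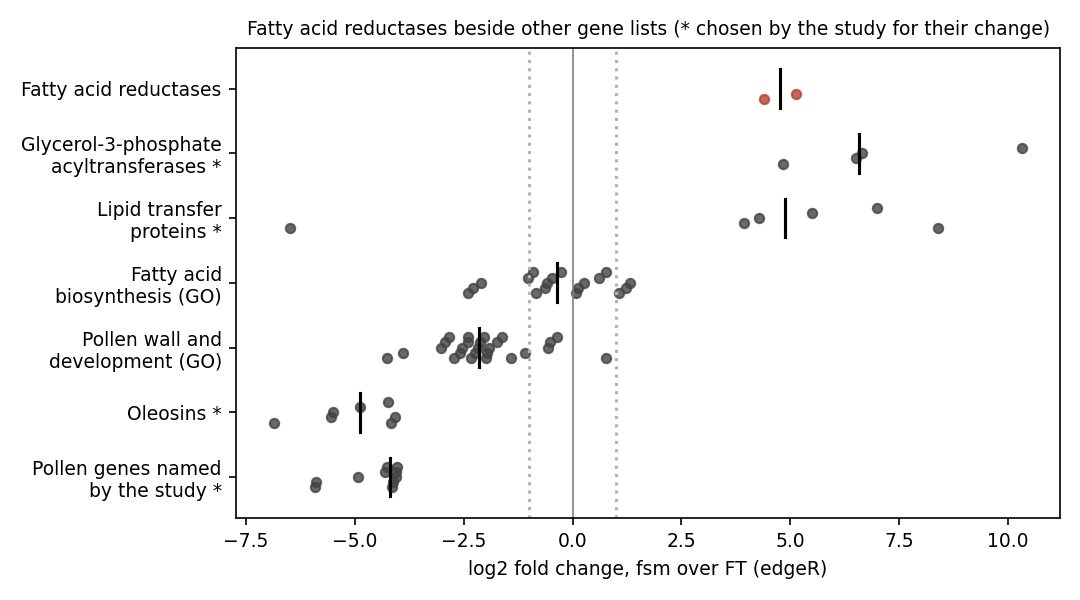
Log2 fold change in *fsm* over ‘FT’ (edgeR) of the 2 fatty acid reductases (red) and of the genes of 6 other lists (grey), each point a gene, with black lines at the medians and dotted lines at -1 and 1. The 26 pollen wall and development genes have a median of -2.14. The genes in lists with an asterisk were chosen by the study for their change. Values of the 5 genes with no read in 1 of the lines depend on the prior count.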

How the data were processed

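The members and all lists were chosen with earlier results of these data known. The authors mapped clean paired-end reads to the *Brassica* genome, version 1.5, with SOAP2, allowing up to 5 mismatches, and deposited for each gene a count headed as unique reads, the gene length, the percentage covered and the RPKM. The deposited counts of each library sum to more than the mapped reads that the study lists for it, so they are not simply its uniquely matched reads, and what else they count was not settled. The submitters' notes name DESeq. The deposited counts are not normalized, and the deposited RPKM values equal the count divided by the length in kilobases and by the library's listed total. Coverage slightly exceeds the whole length for a few genes. A gene not listed in a library was taken as 0 reads. How reads shared by near-identical gene copies were treated was not tested. The methods call each mixed sample a biological replicate and also state that equal amounts of RNA were pooled across replicates. P-values then measure the spread between these libraries, which may be technical. Depth is given with the results.

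Counts of all 6 libraries were fitted with edgeR 4.0.16 in R 4.3.3 (TMM, quasi-likelihood test, Benjamini-Hochberg adjustment over 35616 genes, no filter, default prior count, no covariates). The standard error is the log2 fold change divided by the square root of F. The code was tested on simulated data. Alternatives were DESeq2 1.42.0 (test and size factors), total counts, edgeR's low-count filter, a prior count of 2, log2(RPKM + 1) and log2(RPKM + 0.1) tested by limma 3.58.1, each library left out, and the replicate number as a block. Named genes are the 2 members, the 5 genes nearest to each, and the extremes of the lists; *Bra036646*, *Bra034843*, *Bra002041*, *Bra000903*, *Bra036303*, *Bra020322*, *Bra037871*, *Bra028695*, *Bra037879*, *Bra038893* and the 3 pectinesterase genes were picked after their values were seen. Descriptions come from the study's gene lists. Sequences and genome positions are not used here.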

Additional observations from a re-analysis of the deposited data

How the results depend on the processing

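Under the DESeq2 test, edgeR with DESeq2's size factors, with total counts, with a low-count filter or with a prior count of 2, and with each library left out, the log2 fold change of both reductases in *fsm* was at least 4, given as a description. With limma on log2(RPKM + 1), the log2 fold change was 1.23 for *Bra003255* and 2.89 for *Bra020195*, and on log2(RPKM + 0.1) it was 3.55 for *Bra003255*, each below 4. With each library left out, it ranged from 4.58 to 9.05 for *Bra003255* and from 4.16 to 4.62 for *Bra020195*, and the ratio of their RPKM in *fsm* from 6.45 to 7.67. The 1873 genes past the strict thresholds became 1156 with a prior count of 2, 497 with limma on log2(RPKM + 1) and 1177 on log2(RPKM + 0.1) and 1708 to 1818 with each library left out. A larger prior count shrinks changes of low counts by construction, while limma also differs in test and scaling, and the cause was not tested. Only 2 of the 5 genes nearest to *Bra003255* were among its nearest on log2(RPKM + 1). The 26 pollen wall genes gave 22 that fell under each alternative based on counts.

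*fsm* and ‘FT’ share the replicate numbers 1 and 2. A fit with a replicate block, limited to those 4 libraries, gave a higher level in *fsm* for both reductases; the log2 fold change was 4.61 for *Bra003255* and 4.64 for *Bra020195*, and 1750 genes passed the strict thresholds, against 1579 without the block in the same 4 libraries, a fit added after seeing the data. The deviations of the 2 same-numbered pairs from their line means had r = -0.06 and 0.08 across 29242 genes. The 7 pairs with different numbers ran from -0.14 to 0.13. With deviations from means of 3 libraries, these values cannot decide whether a shared number marks a pairing. For *Bra003255* in ‘FT’, depth limits the value, which rests on 5 reads.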
